A study of Mus musculus with 5 samples.

Results

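The nuclear genes of the mitochondrial respiratory chain and of ATP synthase were followed in 5 arrays of heart RNA from diabetic Akita mice and wild type mice. Members were the genes with a single annotated symbol beginning with Nduf, Uqcr, Cox4 to Cox8 or Atp5, together with Sdha, Sdhb, Sdhc and Sdhd. This rule found 89 of the 22180 genes on the array. They comprised 40 genes of complex I, 4 of complex II, 8 of complex III, 19 of complex IV and 18 of ATP synthase. Ndufa4 and its relative Ndufa4l2 were placed with complex IV, to which the Ndufa4 protein belongs. Not every member is a subunit: 8 are Ndufaf genes, which encode complex I assembly factors, Cox7a2l encodes a factor that joins complexes III and IV, and Atp5c1-ps and Uqcrh-ps1 are pseudogenes. Where a gene had several probe sets, the one that read highest on average across the 5 arrays stood for it, and values are log2 signals.

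The Akita group held 2 arrays, replicates 1 and 3, and the wild type group 3 arrays, replicates 3, 4 and 5. Akita mice are given as Ins2+/-, and their mutated insulin 2 gene makes them a model of type 1 diabetes through failure of the insulin-producing beta cells. Both groups were 12-week-old males of the C57BL/6 background, and the labels name heart tissue without a chamber. The labels do not say whether each array came from a separate animal, so p-values measure only the spread between these samples, which may be technical.

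Complex I (NADH dehydrogenase) and complex II (succinate dehydrogenase) pass electrons to ubiquinone, complex III hands them to cytochrome c, and complex IV (cytochrome c oxidase) reduces oxygen with them. Complexes I, III and IV pump protons, and ATP synthase uses the resulting gradient to make ATP. The heart depends on this chain for nearly all of its contractile energy, and some complex IV subunits exist in a heart and muscle isoform beside a general one.

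Markers of heart muscle were bright in every array, with summed signals over 8 cardiomyocyte genes, among them Myh6, Actc1 and Tnnt2, of log2 15.59 and 15.56 in Akita and 15.63, 15.63 and 15.68 in wild type. Of these 8 genes, 7 lay lower in Akita, or 87.5%, beside 56.5% of all genes tested, with a median difference of -0.09. In 5 of them both Akita arrays lay below all wild type arrays, or 62.5%. That share was 32.9% in the members tested and 19.9% in all genes tested. The Akita arrays stood apart from each other for atrial genes. These 6 genes summed to 12.35 in Akita replicate 1 and 13.97 in Akita replicate 3, against 12.10 to 12.20 in wild type. Most of each sum was Nppa, which read 12.21 and 13.39 in Akita, against 11.98, 11.86 and 11.79 in wild type. Bmp10, an atrial growth factor, read 5.71 and 10.83 in the Akita arrays, against 4.63, 4.64 and 5.18 in wild type. Sln, an atrial calcium pump regulator, read 6.71 and 10.85 in Akita, against 7.74, 8.13 and 7.95 in wild type, and Myl7, an atrial myosin light chain, 6.55 and 10.36 in Akita, against 7.83, 8.10 and 8.08 in wild type. For both, Akita replicate 1 lay below and replicate 3 above all wild type arrays, while Gja5 overlapped. Of the 7 cardiac fibroblast genes 6 lay higher, with sums of 12.24 and 12.61 in Akita, against 12.14 to 12.19 in wild type. Endothelial genes lay higher in 5 of 6, with sums of 13.07 and 13.17 in Akita, against 12.85 to 12.96 in wild type. Macrophage genes lay lower in 4 of 6, with sums of 9.66 and 10.04 in Akita, against 10.02 to 10.13 in wild type. Adipocyte genes that passed the filter on dim genes lay higher, 3 of 3 white and 3 of 3 brown. The white sums were 7.29 and 7.63 in Akita, against 6.95 to 7.04 in wild type, and the brown sums 8.65 and 9.26 in Akita, against 8.47 to 8.56 in wild type. The white adipocyte markers Adipoq and Lep and the brown marker Elovl3 did not pass that filter. Skeletal muscle sums were 7.41 and 7.32 in Akita, against 7.19 to 7.38 in wild type, and smooth muscle sums 10.47 and 10.88 in Akita, against 10.72 to 10.75 in wild type. Slc4a1, the red cell marker read here, stood at 5.67 and 5.38 in Akita and 5.06 to 5.46 in wild type. The part of these cells in the respiratory signals was not tested, and in bulk tissue fewer cells of a type and less RNA per cell cannot be told apart.

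In Akita hearts 11 of 85 members tested lay lower at an unadjusted p under 0.05 in limma's test, or 12.9%, beside 9.49% of all genes. Another 38 differed by under 0.1 on the log2 scale, or 44.7%, beside 38.0% of all genes. Both isoforms of complex IV subunit 6a, Cox6a1 and Cox6a2, were among the lowest, at 0.624 and 0.689 times their wild type level, with Ndufb11 and Ndufa4l2 between them at 0.654 and 0.664 times theirs. Atp5g2, Sdhc, Cox8a, Ndufv3 and Ndufa8 lay at 0.709, 0.730, 0.747, 0.744 and 0.776 times theirs. Atp5e was the member that lay highest, at 1.40 times its wild type level. No member passed an adjusted p of 0.05 in limma's test over all 15528 genes, of which 0.328% passed. With limma's prior variance made to follow the signal intensity, estimated robustly, 6 members passed, all lower in Akita: Cox6a1, Cox6a2, Atp5g2, Ndufa8, Sdhc and Cox8a. By that setting 1.27% of all genes passed, 0.882% lower.

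Of the 89 members, 85 passed the filter on dim genes, set at the 30th percentile of the genes' means (a log2 signal of 4.06). The testis isoforms Cox7b2 and Cox8c and the 2 pseudogenes did not pass, with mean log2 signals of 2.87, 2.70, 2.90 (Atp5c1-ps) and 2.61 (Uqcrh-ps1). Among the 85, 67 lay lower and 18 higher in Akita, or 78.8% lower, beside 56.5% of all genes tested. An unadjusted p under 0.05 was reached by 11 members lower and 1 higher, or 12.9% and 1.18% of the members, where 9.49% of all genes reached it lower and 4.13% higher. Both Akita arrays lay below all wild type arrays in 28 members, or 32.9%, beside 19.9% of all genes tested, which were mostly dimmer. Both lay above in 4 members, or 4.71%, beside 9.89% of all genes. The log2 difference was at least 0.5 in size in 4, or 4.71%, beside 4.16%. In 8 of the 9 members with a second probe set it ran the same way; in the exception, Cox7b, the probe sets differed by 0.08 and -0.22.

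**Figure D1:**
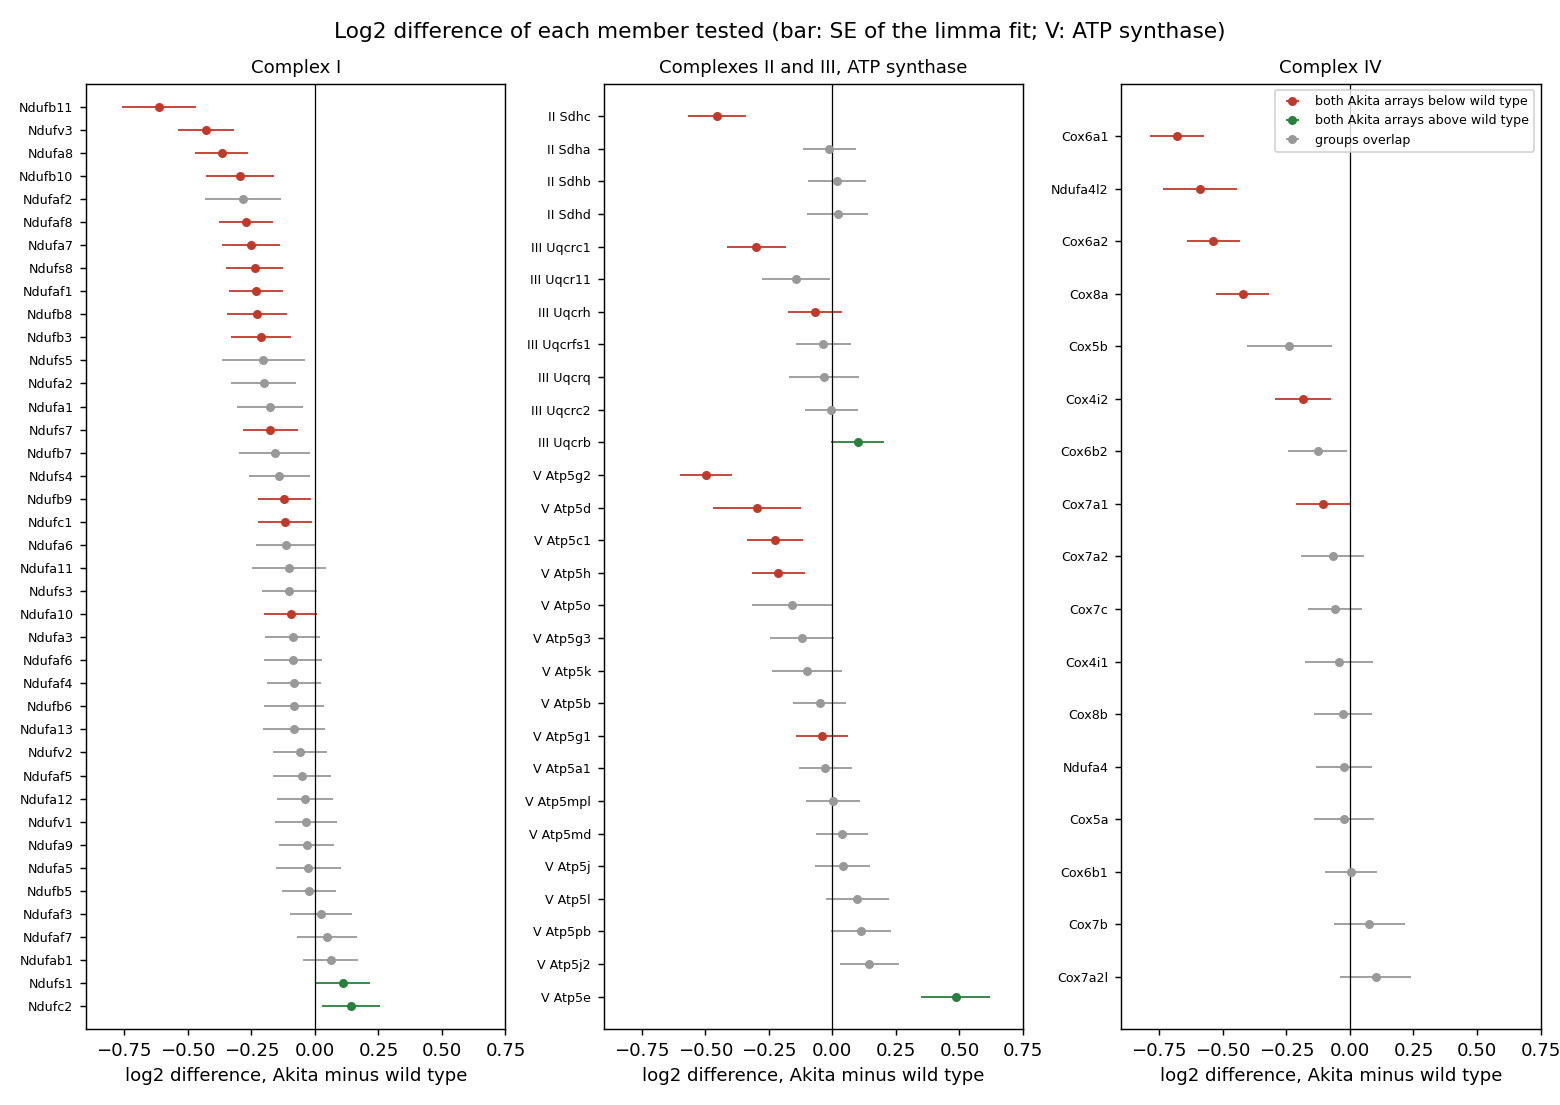
Log2 difference, Akita minus wild type, of the 85 members tested, on the x axis, with each gene on its own line and bars for the SE of the limma fit (2 Akita and 3 wild type arrays). Red points mark the 28 members with both Akita arrays below all wild type arrays and green points the 4 with both above; Cox6a1 stands lowest at -0.68 and Atp5e highest at 0.49.

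The shift of the members as a whole was uneven between the Akita arrays. Relative to the wild type mean of each gene, the median of the 85 members stood at -0.04 in Akita replicate 1 and -0.12 in Akita replicate 3, against -0.03, 0.01 and 0.02 in wild type replicates 3, 4 and 5. All genes tested ran the other way, at -0.07 in Akita replicate 1 and -0.01 in replicate 3. Akita replicate 3 was also the array with the high atrial genes, and whether this bears on the members was not tested. It lay below all wild type arrays in 60.0% of the members, beside 29.5% of all genes. For Akita replicate 1 the shares were 42.4% and 43.4%, so in that array the members lay below wild type about as often as genes in general. Without Akita replicate 3, 52 of 85 members lay lower and their median of -0.04 was no lower than that of all genes, -0.07. Most of the leading genes differed by nearly as much without it: Cox6a1 differed by -0.66, Cox6a2 by -0.52, Atp5g2 by -0.50, Sdhc by -0.49, Cox8a by -0.40, Ndufv3 by -0.38, Ndufa8 by -0.34, Ndufa4l2 by -0.57, Ndufaf8 by -0.27 and Atp5e by 0.52. Ndufb11 differed by -0.77 without Akita replicate 3 and -0.45 without Akita replicate 1, and Uqcrc1 by -0.20 and -0.40. These leading genes were picked by their small p in the same arrays. That choice favours genes whose Akita arrays agree, so similar values with an array left out are no separate support.

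**Figure D2:**
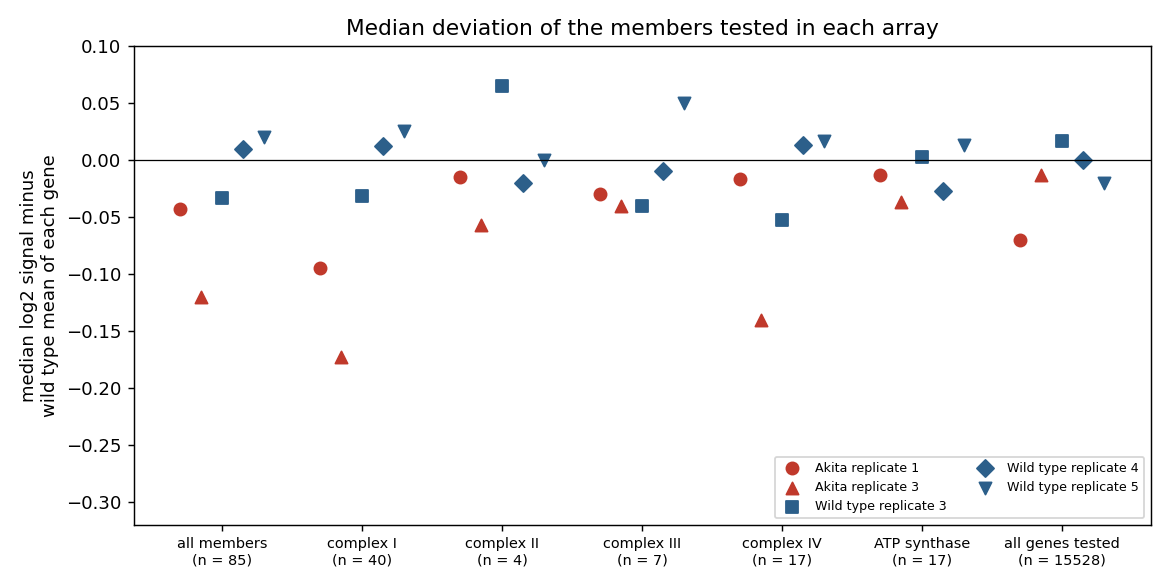
Median, over the members tested of each complex and over all genes tested, of the log2 signal minus the wild type mean of each gene (y axis), 1 point per array with its replicate number in the legend. Akita replicate 3 lies lowest for the members (-0.12), complex I and complex IV, while over all genes Akita replicate 1 lies lowest (-0.07).

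The promoters of the 4 genes that passed with the intensity trend and are in the RefSeq promoter table, Cox6a1, Atp5g2, Ndufa8 and Cox8a, are shown beside that of Atp5e, the member that lay highest. Each runs from 250 bases before to 50 bases after the transcription start in RefSeq, build GRCm38.p6, on the minus strand, 5′ to 3′. Capitals mark matches on either strand to the NRF1 motif or to CCGGAAG, the core bound by ETS factors such as GABP. AAGATGGCG, a YY1 motif, was searched too and had no match in these 5 windows.
Cox6a1: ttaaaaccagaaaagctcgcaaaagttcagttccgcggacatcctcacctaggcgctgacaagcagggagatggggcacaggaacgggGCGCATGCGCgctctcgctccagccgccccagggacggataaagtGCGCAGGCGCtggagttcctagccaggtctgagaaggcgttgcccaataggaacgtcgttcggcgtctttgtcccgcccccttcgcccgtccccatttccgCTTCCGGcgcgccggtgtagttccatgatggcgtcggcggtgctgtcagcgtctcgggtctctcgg
Atp5g2: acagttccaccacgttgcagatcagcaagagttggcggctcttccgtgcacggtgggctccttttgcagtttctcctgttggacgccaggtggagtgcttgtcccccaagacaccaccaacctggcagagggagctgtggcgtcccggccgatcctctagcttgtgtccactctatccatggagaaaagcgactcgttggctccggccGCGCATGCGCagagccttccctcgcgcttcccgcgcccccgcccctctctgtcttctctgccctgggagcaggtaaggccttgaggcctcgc
Ndufa8: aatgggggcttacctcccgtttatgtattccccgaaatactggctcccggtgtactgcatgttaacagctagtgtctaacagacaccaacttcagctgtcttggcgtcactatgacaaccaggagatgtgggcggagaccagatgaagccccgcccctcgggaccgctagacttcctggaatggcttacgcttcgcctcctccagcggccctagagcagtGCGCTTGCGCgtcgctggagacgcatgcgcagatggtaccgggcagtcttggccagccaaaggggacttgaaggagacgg
Cox8a: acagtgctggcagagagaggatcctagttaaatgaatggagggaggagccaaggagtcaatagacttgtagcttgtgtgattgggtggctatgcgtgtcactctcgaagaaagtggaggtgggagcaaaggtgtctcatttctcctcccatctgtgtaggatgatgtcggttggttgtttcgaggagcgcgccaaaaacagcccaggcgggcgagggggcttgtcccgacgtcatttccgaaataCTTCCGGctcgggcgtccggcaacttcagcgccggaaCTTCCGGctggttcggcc
Atp5e: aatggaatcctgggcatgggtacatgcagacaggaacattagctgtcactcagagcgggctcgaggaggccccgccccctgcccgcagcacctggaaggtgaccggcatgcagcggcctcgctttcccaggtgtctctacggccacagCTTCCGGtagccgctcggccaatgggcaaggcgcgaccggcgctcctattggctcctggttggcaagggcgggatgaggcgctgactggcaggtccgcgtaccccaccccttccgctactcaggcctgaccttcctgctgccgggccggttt
Cox6a1 holds matches to both motifs, Atp5g2 and Ndufa8 to the NRF1 motif, and Cox8a and Atp5e to the ETS core, so the ETS core stands on both sides of the contrast. The windows lie at chr5:115348909-115349208 (Cox6a1), chr15:102670998-102671297 (Atp5g2), chr2:36049289-36049588 (Ndufa8), chr19:7217567-7217866 (Cox8a) and chr2:174464052-174464351 (Atp5e).

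The members varied little within groups, with a median within-group SD of 0.087, beside 0.144 over all genes tested (log2 scale). Other genes varied less the brighter they were, with median SDs of 0.156 below a mean log2 signal of 8 and 0.049 from 12 upwards, whereas the members below 8 had a median SD of 0.088. The 20 members below 8 had a median difference of -0.14, beside -0.03 in 12543 other genes. The 18 between 8 and 10 had -0.11, beside -0.05 in 2399 other genes. In the 36 between 10 and 12 and the 11 from 12 upwards the median was -0.05, beside -0.03 in the other genes of each range. Both Akita arrays lay below all wild type arrays in 40.0% of the members below 8, beside 17.9% of other genes. Between 8 and 10 the shares were 38.9% and 27.5%. They were 22.2% and 29.4% between 10 and 12, where the members fell short of other genes, and 45.5% and 37.3% from 12 upwards.

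Complex IV held the lowest member. Cox6a1, the general isoform of a subunit at the dimer interface of the enzyme, read 11.13 and 11.09 in the Akita arrays, against 11.84, 11.77 and 11.76 in wild type. The groups stood well apart, by a log2 difference of -0.68 (SE 0.105, limma adjusted p = 0.0696). Cox6a2, the heart and skeletal muscle isoform of the same subunit, read 12.28 and 12.24 in Akita and 12.85, 12.76 and 12.78 in wild type. It lay lower in both Akita arrays by a log2 difference of -0.54 (SE 0.105, limma adjusted p = 0.125). With an intensity trend and a robust prior, the limma adjusted p was 0.00104 for Cox6a1 and 0.0015 for Cox6a2. Cox6a1 also passed, at 0.0426, when the filter was set at the 50th percentile, while Cox6a2 stood at 0.0811. Neither passed with the arrays centred, at limma adjusted p of 0.161 and 0.23, or with array weights, at 0.12 and 0.218. The same held without moderation (limma adjusted p 0.232 and 0.252) and without wild type replicate 3 (0.293 and 0.408).

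In the other isoform pairs the partners differed unequally or little. Cox8a, the general isoform of subunit 8, read 9.56 and 9.51 in Akita, against 9.97, 9.94 and 9.96 in wild type. The gap was far wider than the spread within either group. Its log2 difference was -0.42 (SE 0.103, limma adjusted p = 0.181, and 0.0319 with an intensity trend and a robust prior). Its heart and muscle partner Cox8b read 11.79 and 11.63 in Akita, against 11.66, 11.75 and 11.80 in wild type. The Cox8b groups overlapped, with a log2 difference of -0.03 (SE 0.114). For subunit 7a, the heart isoform Cox7a1 differed by -0.11 (SE 0.105), without overlap, and the general isoform Cox7a2 by -0.07 (SE 0.123). For subunit 4, Cox4i2, the lung and hypoxia isoform, differed by -0.19 (SE 0.110), without overlap, and the general Cox4i1 by -0.04 (SE 0.133). For subunit 6b, the testis isoform Cox6b2 differed by -0.13 (SE 0.117) and the general Cox6b1 by 0.01 (SE 0.103). Cox7b, the tested form of subunit 7b, differed by 0.08 (SE 0.139).

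Differences of log2 signals within an array show which partners differed unequally, although the size of such a difference says nothing of the ratio of the transcripts. Cox8b minus Cox8a stood at 2.23 and 2.12 in the Akita arrays and at 1.69, 1.81 and 1.84 in wild type, so the balance lay further towards the heart isoform in both Akita arrays. Cox6a2 minus Cox6a1 stood at 1.15 in both Akita arrays and at 1.01, 0.99 and 1.02 in wild type. Here the shift of the balance was small beside the lower signal of both partners. Cox7a1 minus Cox7a2, Cox4i2 minus Cox4i1 and Cox6b2 minus Cox6b1 overlapped between groups. These differences were not tested.

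**Figure D3:**
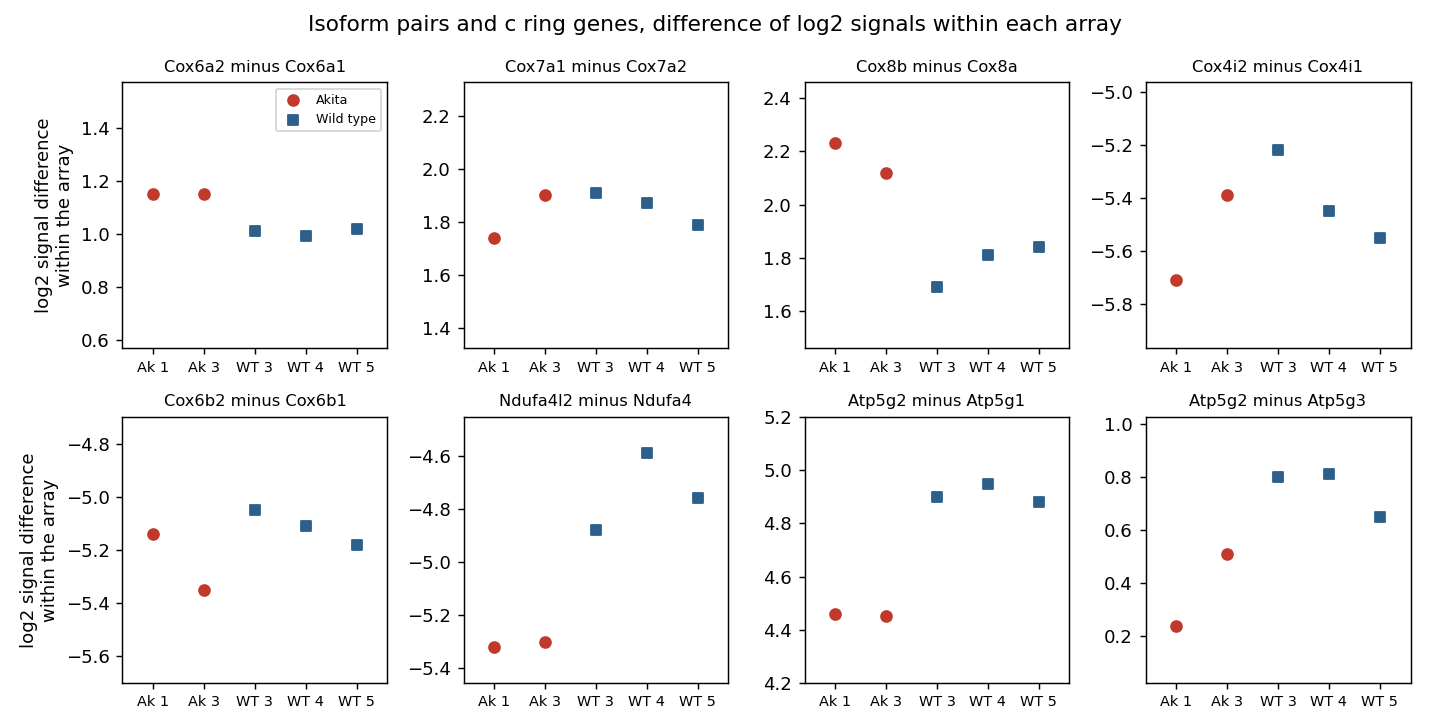
Difference of log2 signals between paired genes within each array (y axis), for the 2 Akita arrays (circles) and 3 wild type arrays (squares), in panels of equal height. Cox8b minus Cox8a lies higher in Akita, and Ndufa4l2 minus Ndufa4 and both differences of Atp5g2 lie lower, while the Cox7a, Cox4i and Cox6b pairs overlap.

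Among the complex IV genes with a single form, Cox5a, Cox5b, Cox7c and Ndufa4 differed by -0.02, -0.24, -0.06 and -0.02, each with overlapping groups. Cox7c was by far the dimmest of them, with a mean log2 signal of 5.63. Ndufa4l2, a hypoxia-inducible relative of Ndufa4, read 7.0 and 6.96 in Akita and 7.36, 7.79 and 7.56 in wild type. It lay lower in both Akita arrays, though the wild type arrays were themselves spread out (log2 difference -0.59, SE 0.145, limma adjusted p = 0.182). Cox7a2l overlapped, with a difference of 0.10. In complex IV as a whole, 14 of 17 members tested lay lower, 6 without overlap, or 82.4% and 35.3%, beside 56.5% and 19.9% of all genes tested. The median difference was -0.07, beside -0.03 over all genes, and the count leaned on Akita replicate 3. That array read below the wild type mean in 15 of the 17 (median -0.14) and Akita replicate 1 in 9 (median -0.02).

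In ATP synthase, Atp5g2 had the lowest difference of the 3 genes for the c subunit of the proton-driven rotor. Atp5g1, Atp5g2 and Atp5g3 encode the same mature c subunit behind different targeting peptides. Atp5g2 read 11.34 in both Akita arrays, against 11.84, 11.85 and 11.82 in wild type. Its log2 difference of -0.50 had an SE of 0.103 and a limma adjusted p of 0.137, or 0.00312 with an intensity trend and a robust prior. A second probe set for Atp5g2 also lay lower, at 10.57 and 10.60 in Akita and 11.07, 11.01 and 10.99 in wild type. Atp5g1 read 6.88 and 6.89 in Akita, against 6.94, 6.90 and 6.94 in wild type, and differed by -0.04 (SE 0.103), just without overlap. Atp5g3 read 11.10 and 10.83 in Akita, against 11.04, 11.04 and 11.17 in wild type, and differed by -0.12 (SE 0.126). Atp5g2 minus Atp5g3 lay at 0.24 and 0.51 in Akita and at 0.80, 0.81 and 0.65 in wild type, without overlap.

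The F1 head held the member with the highest difference. Atp5e, the epsilon subunit of the central stalk, read 10.37 and 10.30 in Akita, against 9.65, 10.02 and 9.88 in wild type. Both Akita arrays lay above every wild type array, though wild type replicate 3 lay apart from the other two (log2 difference 0.49, SE 0.137, limma adjusted p = 0.222). Its second probe set, at 7.50 and 7.13 in Akita and 7.02, 6.87 and 6.96 in wild type, lay higher too. The alpha and beta subunits that form the catalytic ring, Atp5a1 and Atp5b, differed by -0.03 and -0.05 with overlapping groups. Atp5c1 and Atp5d, the gamma and delta subunits, differed by -0.23 and -0.30, both without overlap. Atp5d read 10.16 and 10.01 in Akita, against 10.71, 10.25 and 10.19 in wild type, and without wild type replicate 3 its difference was -0.14. In the peripheral stalk, which holds the head still, Atp5h (subunit d) read 12.33 and 12.35 in Akita and 12.58, 12.52 and 12.56 in wild type. It differed by -0.21 (SE 0.104, limma adjusted p = 0.426), while its second probe set differed by -0.87, so the size for Atp5h depends on the probe set. Atp5pb, Atp5o and Atp5j differed by 0.11, -0.16 and 0.04. The 5 small membrane subunits ran from -0.10 to 0.15, the latter in Atp5j2, whose mean log2 signal of 4.14 lay just over the filter on dim genes. Over ATP synthase, 10 of 17 members tested lay lower, or 58.8%, near the 56.5% over all genes, with a median of -0.04.

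In complex I, 35 of 40 members lay lower and 14 did so without overlap, or 87.5% and 35.0%, beside 56.5% and 19.9% of all genes tested. The median difference was -0.11, beside -0.03 over all genes. Relative to the wild type means, the median of complex I stood at -0.10 in Akita replicate 1 and -0.17 in Akita replicate 3. The 3 with the smallest p were accessory subunits, which surround the catalytic core. Ndufb11, a membrane arm subunit encoded on the X chromosome, read 4.99 and 5.31 in Akita and 5.65, 5.93 and 5.71 in wild type. Its signal was dim and its Akita arrays stood apart from each other (log2 difference -0.61, SE 0.146, limma adjusted p = 0.170). Ndufv3, an accessory subunit of the NADH-binding module, read 7.57 and 7.47 in Akita, against 7.90, 8.02 and 7.92 in wild type. The groups did not overlap (log2 difference -0.43, SE 0.110, limma adjusted p = 0.193). Ndufa8, an accessory subunit on the intermembrane space side, read 11.25 and 11.19 in Akita and 11.62, 11.59 and 11.55 in wild type. Both groups were tight, with a log2 difference of -0.37 (SE 0.105, limma adjusted p = 0.228, and 0.0218 with an intensity trend and a robust prior).

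Complex I has 6 core subunits among the members. In the NADH-binding module, Ndufv1, Ndufv2 and Ndufs1 differed by -0.03, -0.06 and 0.11, and Ndufs1 read 11.40 and 11.47 in Akita, above 11.36, 11.28 and 11.33 in wild type. In the ubiquinone-reducing module, Ndufs3, Ndufs7 and Ndufs8 differed by -0.10, -0.18 and -0.24, the last 2 without overlap. Of the 26 accessory subunits, 24 lay lower, and the exceptions were Ndufc2 at 0.14 and the acyl carrier protein Ndufab1 at 0.06. Ndufb9, the complex I member with the highest signal, differed by -0.12 without overlap. The 8 assembly factors ran from -0.28 (Ndufaf2) to 0.05 (Ndufaf7), and Ndufaf8 read 6.98 and 6.97 in Akita, against 7.21, 7.32 and 7.21 in wild type (log2 difference -0.27, SE 0.107, limma adjusted p = 0.333).

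Among the 4 subunits of complex II, 1 stood clear of its wild type level. Sdhc, a membrane anchor that helps form the ubiquinone site, read 10.67 and 10.75 in Akita, against 11.27, 11.07 and 11.15 in wild type. It lay lower in both Akita arrays, with a log2 difference of -0.45 (SE 0.115, limma adjusted p = 0.189, and 0.0257 with an intensity trend and a robust prior). The other anchor, Sdhd, differed by 0.02 (SE 0.120), the iron-sulfur subunit Sdhb by 0.02 (SE 0.115) and the flavoprotein Sdha by -0.01 (SE 0.104). These 3 overlapped between groups, and whether Sdhc differs from them was not tested.

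In complex III, Uqcrc1, a core protein facing the matrix, read 12.07 and 11.87 in Akita and 12.21, 12.28 and 12.32 in wild type. It lay lower in both Akita arrays, though these stood apart from each other (log2 difference -0.30, SE 0.116, limma adjusted p = 0.327). Its partner core protein Uqcrc2 differed by -0.01 (SE 0.104) and the Rieske iron-sulfur protein Uqcrfs1 by -0.04 (SE 0.108). Uqcr11 and Uqcrb, small subunits, differed by -0.14 and 0.10, and Uqcrb read 12.53 and 12.49 in Akita, above 12.37, 12.40 and 12.46 in wild type. The median over the 7 members tested was -0.04.

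**Figure D4:**
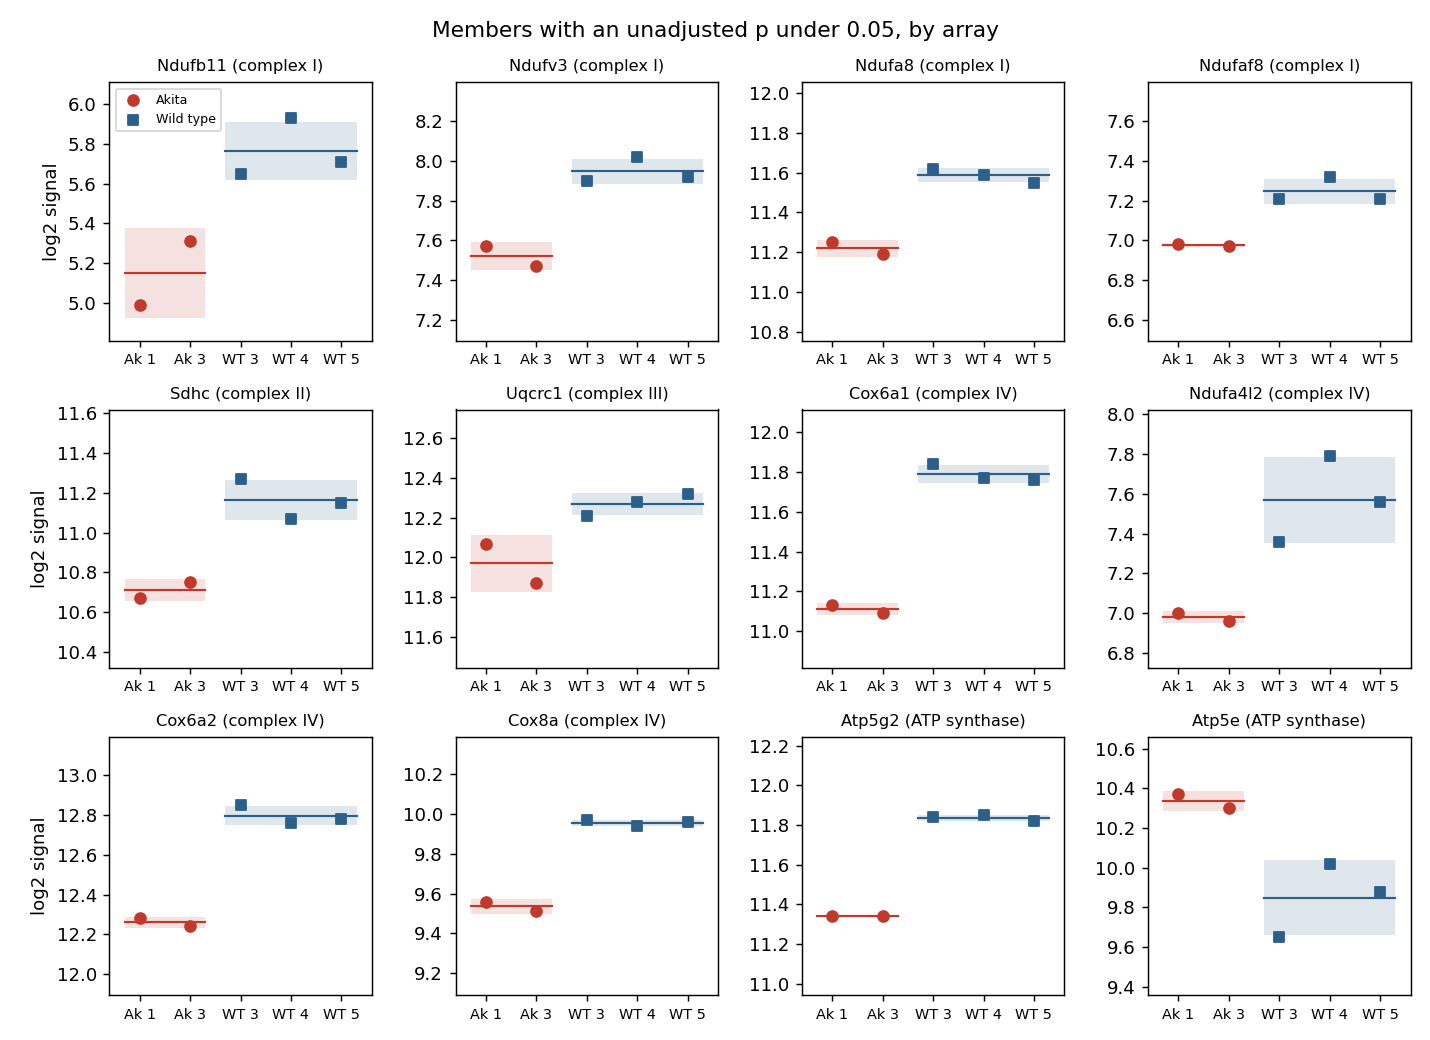
Log2 signal (y axis, panels of equal height) in the 2 Akita arrays (circles) and 3 wild type arrays (squares) of the 12 members with an unadjusted p under 0.05; lines are group means and shaded bands the mean ± SD. In 11 panels both Akita points lie below every wild type point, and in the Atp5e panel both lie above.

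A promoter was found for 71 of the 85 members tested and for 12072 of all genes tested, members included. The NRF1 motif stood in 17 of the 71, or 23.9%, beside 9.56% of all promoters. The ETS core stood in 26.8%, beside 16.4%, and the YY1 motif in 9.86%, beside 2.86%. TCAAGGTCA, the motif of the estrogen-related receptors, stood in 2 member promoters, those of Atp5g3 and Sdhd, or 2.82%, beside 0.331%. A CCAAT box (CCAAT) stood in 40.8%, beside 41.5%, and a TATA box (TATAAA) in 9.86%, beside 9.98%. Median GC content was 58.5% in the members and 59.7% over all genes. Such matches are descriptions of the letters and no evidence of binding. The 17 members with the NRF1 motif had a median difference of -0.12 and the 54 without it -0.07. Of the 17, 16 lay lower, against 40 of the 54. Without overlap 6 and 17 did so, both near the 32.9% of all members tested, beside 19.9% of all genes. Differences between members with and without a motif were not tested. For the ETS core the medians were -0.10 in 19 members with it and -0.09 in 52 without, but the counts ran the other way, with 12 of the 19 lower, against 44 of the 52.

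The sign of the members' median depended on the scaling. With each array centred on its median, 41 of 85 members lay lower, the median difference was 0.01 and 13 members lay lower without overlap, while the median over all genes moved to 0.06. With quantile normalization again, 53 lay lower, 18 without overlap, with a median of -0.04 beside 0.00 over all genes. Centring shifts the difference of every gene by the same amount, so it could not change the gap between the members and all genes. With quantile normalization again, which can change that gap, the members' median still lay below that of all genes. Of the 6 members that passed with the intensity trend, with the arrays centred, Cox6a1 lay at -0.59, Cox6a2 at -0.44, Atp5g2 at -0.40, Sdhc at -0.36, Cox8a at -0.33 and Ndufa8 at -0.27. Their differences were larger than the common shift, so centring could not turn their sign.

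Other genes of the pathway came from lists by role. Of 37 measured assembly factors outside the rule, 31 lay lower, or 83.8%, and 1 passed, beside 56.5% lower and 0.328% passing among all genes. Their median was -0.12, beside -0.03 over all genes. That gene was Higd2a, which acts in complex IV and supercomplex assembly, at 9.88 and 9.95 in Akita and 11.02, 10.78 and 10.84 in wild type (log2 difference -0.97, SE 0.120, limma adjusted p = 0.0304). The call was lost when any 1 array was left out, with limma adjusted p from 0.0899 (Akita replicate 3) to 0.182 (wild type replicate 3), and with the arrays centred (0.064), array weights (0.0624) or no moderation (0.253). Uqcc3, a complex III assembly factor, followed at 7.08 and 7.14 in Akita, against 7.79, 7.89 and 7.82 in wild type (log2 difference -0.72, SE 0.106, limma adjusted p = 0.0552, and 0.0138 with an intensity trend and a robust prior). Of 7 electron carriers, 2 lay lower, or 28.6%, beside 56.5% of all genes tested, and 0 passed limma's test. In that test 1 lay lower at an unadjusted p under 0.05, as did 9.49% of all genes. Cytochrome c1, Cyc1, which sits beside Uqcrc1 in complex III, differed by -0.29 (SE 0.108, limma adjusted p = 0.319), while cytochrome c, Cycs, read 12.54 and 12.46 in Akita, above 12.31, 12.28 and 12.37 in wild type. Of 12 regulators of respiratory genes, 9 lay lower and 0 passed limma's test (2 at an unadjusted p under 0.05). Nrf1, the factor that binds the NRF1 motif, read 6.00 and 6.12 in Akita, against 6.52, 6.40 and 6.45 in wild type (log2 difference -0.40, SE 0.110, limma adjusted p = 0.215), and Esrrb differed by -0.38 (SE 0.127, limma adjusted p = 0.284). The 13 subunits encoded by the mitochondrial genome were not analysed here.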

How the data were processed

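Values as deposited were log2 signals for each probe set on each array, from 1.27 to 13.66; the base was read from that range. They were made with Affymetrix Expression Console, per the submitters' processing notes; the algorithm, version and scaling between arrays were not given in the sources used here. Scaling arrays to each other would hide a shift common to most genes. Of 41345 probe sets, 23521 had exactly 1 symbol, 1814 several and 16010 none in the platform annotation; 10 of those with several matched the rule and were left out. Through Entrez identifiers 23328 matched RefSeq GRCm38.p6, with 0 symbols changed. The 85 members tested were fitted with all 15528 genes over the 30th percentile of mean signal, by limma 3.58.1 in R 4.3.3 (lmFit, eBayes, two-sided, Benjamini-Hochberg over all genes; 3 residual and 4.38 prior degrees of freedom). The test was checked on simulated data. The number of arrays limits the precision. Figures were made with matplotlib 3.10.9. Named genes were, per complex, the 3 with the smallest p, the highest and lowest difference and the highest signal; complex IV isoform pairs; the c ring; members under the filter; members whose probe sets differ by over 0.5; and 2 per other list. Other names were chosen after their values were seen. Members and lists were chosen with earlier results of these data known. Alternatives were other filters, scalings, priors and weights, probe set means, an unmoderated model and each array left out.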

Additional observations from a re-analysis of the deposited data

How the results depend on the processing

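The count of members past an adjusted p of 0.05 was 0 in limma's test (12 at an unadjusted p under 0.05), 1 with the filter at the 50th percentile and 6 with an intensity trend and a robust prior; it was 0 under the other alternatives, each array left out included. Members lower at an unadjusted p under 0.05 numbered 11, or 19 with the intensity trend, 18 unmoderated, and 9 to 13 with an array left out. Members lying lower numbered 67, or 41 with the arrays centred and 52 to 69 with an array left out. Those without overlap numbered 28 lower, or 13 centred, 18 with quantile normalization again and 29 to 51 with an array left out, and 4 higher, or 6 to 12 with an array left out. With fewer arrays, groups overlap less easily, so these counts cannot fall when an array is left out. The 51, without Akita replicate 1, were 60.0% of the members, beside 29.5% of all genes. Without Akita replicate 3 the shares were 42.4% and 43.4%. Shares over all genes were not taken under the other settings. The median of -0.085 became 0.0092 centred and -0.0443 with quantile normalization again, and ran from -0.12 to -0.0433 with an array left out. The cause was not tested. Signs turned in members with small differences. With the arrays centred, Atp5a1 and Cox8b stood at 0.07, Atp5g1 and Cox4i1 at 0.05, Cox7a2 at 0.03 and Sdha at 0.08. With quantile normalization again, Atp5g1 stood at 0.07 and Sdha at 0.02, and with probe sets averaged Cox7b at -0.07. With an array left out, the values ran from -0.25 to 0.02 for Atp5g3, -0.16 to 0.07 for Cox4i1, -0.01 to 0.02 for Cox6b1, -0.16 to 0.03 for Cox7a2, -0.07 to 0.23 for Cox7b, -0.11 to 0.05 for Cox8b, -0.04 to 0.01 for Sdha, -0.08 to 0.11 for Sdhb and -0.04 to 0.09 for Sdhd. Values that kept their sign or reached 0 but moved by over 1.5 times ran from -0.05 to -0.01 for Atp5a1, -0.24 to -0.02 for Cox6b2, 0.00 to 0.20 for Cox7a2l, 0.05 to 0.23 for Ndufc2 and -0.24 to -0.07 for Uqcr11. No paired analysis was possible because the labels record no pairing of arrays. Replicate number 3 occurs in both groups, but the labels do not say that it marks a pair. Leaving out 1 Akita array assumes that the other varies like the wild type arrays.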
